A study of Mus musculus with 24 samples.

Results

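The 9 genes that were followed make, carry, break down or answer to retinoic acid, and they were read in the embryonic mouse gut after loss of Ret, of Sema3d, or of both. They were Stra6, Dhrs3, Aldh1a1, Aldh1a2, Aldh1a3, Crabp1, Crabp2, Cyp26b1 and Rarb, chosen by gene symbol, and 9 of 9 had a row in each of the 4 deposited tables, which list between 24602 and 26260 genes. The series compares these losses singly and jointly, to see whether Ret, the receptor tyrosine kinase of enteric neural crest cells, and Sema3d, a secreted guidance cue, act together as the enteric nervous system forms. At embryonic day 12.5, 24 whole guts were taken for poly-A RNA sequencing, with 3 female and 3 male guts per genotype. The genotypes were wildtype, homozygous Ret null, homozygous Sema3d null and homozygous for both nulls (Ret-Sema3d double null), and all carried a mixed C57BL/6, 129/Sv and C3H background. How the null alleles were built is not stated in the labels read here. The tables hold the authors' model coefficients and p-values and no value for a single gut, so levels are given per genotype as fitted, and the depth of each library is unknown.

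Retinoic acid is made from vitamin A inside cells and acts as a ligand of nuclear receptors. Retinol is oxidised to retinal, retinal is oxidised irreversibly to retinoic acid by the Aldh1a enzymes, and Cyp26 enzymes break retinoic acid down, so that the places of synthesis and breakdown set where the signal is present. In the gut wall, retinoic acid from the mesenchyme and mesothelium is needed for enteric neural crest cells, which express Ret, to colonise the bowel.

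The promoters of the response gene Rarb and of the synthesis gene Aldh1a2 are shown first, since retinoic acid receptors act by binding DNA. They bind pairs of half-sites (here AGGTCA, the variant AGTTCA, the related GGGTCA and also its variant GGTTCA) set as direct repeats, called DR1, DR2 and DR5 after the 1, 2 or 5 bases between them. The windows searched ran from 250 bases before to 50 bases after each RefSeq gene start (GRCm38.p6), on both strands; 7 of the 9 genes had at least 1 window, 13 in all. A DR5 stood in 1 of the 13 windows, that of Rarb, at bases -53 to -37 from the start (chr14:16575513-16575529), against 0.0974% of 32851 promoters. DR1 and DR2 were in 0 of the 13, against 0.222% and 0.268% of all promoters. The last 120 bases before each start follow, 5′ to 3′ on the gene's strand, with the DR5 half-sites in capitals. Rarb is shown for its repeat (chr14:16575477-16575596, minus strand) and Aldh1a2 because it was the member whose level changed (chr9:71215669-71215788, plus strand). The RefSeq start used for Rarb lies inside the longer GENCODE span of the gene given below (16430839 to 16819156), not at its outer end.
Rarb: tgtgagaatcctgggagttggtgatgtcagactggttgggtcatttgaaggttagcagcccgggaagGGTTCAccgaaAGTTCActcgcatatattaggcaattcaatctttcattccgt
Aldh1a2: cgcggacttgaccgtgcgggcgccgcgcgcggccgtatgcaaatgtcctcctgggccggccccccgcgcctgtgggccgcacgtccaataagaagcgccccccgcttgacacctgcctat
At least 1 half-site was present in 3 of the 13 windows and in 43.7% of all promoters. These matches are letters in a window, not measured binding.

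In the wildtype gut the synthesis enzyme Aldh1a2 was by far the most abundant member. Its fitted level in the 24-gut fit was 2628 normalised counts, or 1161 per kb of exon (exon length from GENCODE M21, GRCm38, all annotated exons merged). Aldh1a2 (ENSMUSG00000013584.5), the main retinal dehydrogenase of embryonic mesoderm, lies on chromosome 9 (71215789 to 71296243, plus strand). Its isozymes were lower: Aldh1a1 (chromosome 19, 20492715 to 20643465) had 112 per kb and Aldh1a3 (chromosome 7, 66390890 to 66427517, minus strand) 3.65 per kb, from a level of 16.9. Of the summed Aldh1a level per kb, Aldh1a2 made up 90.9%, Aldh1a1 8.79% and Aldh1a3 0.286%.

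The binding proteins came next. Crabp1 and Crabp2 encode small cytosolic proteins that hold retinoic acid; Crabp2 hands it to the nuclear receptors. Crabp1 (chromosome 9, 54764748 to 54773110) had 350 per kb and Crabp2 (chromosome 3, 87948666 to 87953376) 182 per kb in wildtype gut. Dhrs3, which reduces retinal back to retinol and so limits synthesis, had 136 per kb (chromosome 4, 144892827 to 144928209). Rarb, a retinoic acid receptor whose own gene is a direct target, had 115 per kb (chromosome 14, 16430839 to 16819156, minus strand). Cyp26b1, which degrades retinoic acid, had 78.1 per kb, and Stra6, the cell-surface receptor that takes up retinol from its plasma carrier, had 73.1 per kb. Cyp26b1 (84571414 to 84593908, minus strand) shares chromosome 6 with the targeted Ret and lies 33.6 Mb from it; Stra6 (ENSMUSG00000032327.14) is on chromosome 9 (58063788 to 58153996). The order was thus Aldh1a2, Crabp1, Crabp2, Dhrs3, Rarb, Aldh1a1, Cyp26b1, Stra6 and Aldh1a3. The tables give no error for a wildtype level, and the neighbours Rarb with Aldh1a1, and Cyp26b1 with Stra6, lay closer together than the spread between guts described further on.

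**Figure D1:**
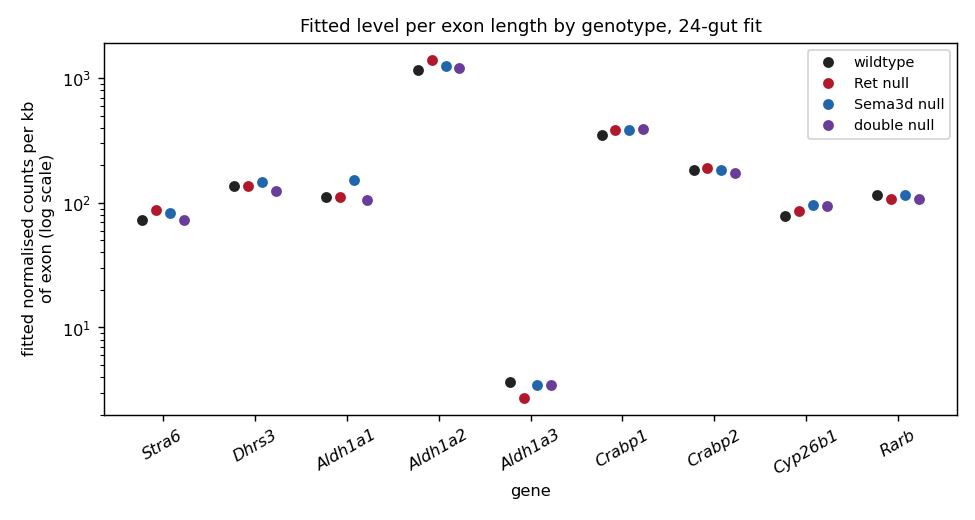
Fitted normalised counts per kb of exon (log scale) of the 9 genes in the 4 genotypes, from the fit of all 24 guts, without error bars since the tables give none for a level. Aldh1a2 lies highest and Aldh1a3 lowest in each genotype, and the 4 points of a gene lie close together.

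The labels were checked against the targeted genes, clearly so for Ret and without a firm answer for Sema3d. In the 24-gut fit Ret was at 0.310% of its wildtype level in Ret null guts and at 0.0758% where both genes were lost, and Sema3d was at 47.7% in Sema3d null and 48.5% in double null guts. A remaining Sema3d level of that size does not by itself tell a homozygous null from a partial loss, and the tables hold no values by exon. Sema3d was also lower in Ret null guts, at 83.1% of wildtype (log2 change -0.27, adjusted p = 0.000882, the authors' deposited table). Ret was at 87.2% in Sema3d null guts, with a log2 change of -0.19 that did not pass at adjusted p below 0.05. Enteric neuron markers (10 genes, Tubb3 and Elavl3 among them) summed to 15.5% of wildtype in Ret null guts, 96.2% in Sema3d null guts and 15.2% in double null guts, and the markers of crest progenitors and glia to 41.7%, 90.3% and 43.1%. In a whole gut, fewer cells of a type and less RNA per cell cannot be told apart.

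The comparison of Ret null with wildtype guts asked what loss of Ret does alone. Of the 9 genes 1 rose, Aldh1a2, by 21.6%, and 0 fell. In that fit its level was 2565 normalised counts in wildtype and 3120 in Ret null guts, and the authors' deposited table lists a log2 change of 0.28 ± 0.08 (adjusted p = 0.0282; the error after ± is derived from the deposited deviances throughout, 6 guts per genotype). The 95% interval of that change ran from 0.12 to 0.45. At adjusted p below 0.05, 2.66% of all genes in that fit were called, and 0.386% were called as higher.

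Stra6 stood next to it in size. It had 416 normalised counts in wildtype and 498 in Ret null guts, with a log2 change of 0.26 ± 0.09 in the authors' deposited table (unadjusted p = 0.00342, adjusted p = 0.108), and so did not pass. An unadjusted p below 0.05 was found for 2 of the 9 genes, Aldh1a2 and Stra6, both higher, and for 8.43% of all genes (2.96% higher), or 12.2% of those with a fitted level of at least 50. The remaining 7 genes had intervals that included 0.

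The enzymes that limit or end the signal did not pass in Ret null guts. By the authors' deposited table Dhrs3 had a log2 change of 0.02 ± 0.11, with 388 normalised counts in wildtype and 393 in Ret null guts. Cyp26b1 had 0.13 ± 0.12 (407 and 446 normalised counts). The 95% interval of Dhrs3 ran from -0.20 to 0.23 and that of Cyp26b1 from -0.10 to 0.37, so a change by 0.5 log2 units lay outside both.

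The binding proteins and the response gene did not pass either. Crabp1 had a log2 change of 0.13 ± 0.12 (274 normalised counts in wildtype and 299 in Ret null guts, by the authors' deposited table) and Crabp2 one of 0.05 ± 0.09 (236 and 244). Crabp1 is also known as a gene of neural crest cells; the lower bound of its interval was -0.11, in guts whose neuron markers were at 15.5%. Rarb had -0.08 ± 0.07 in the authors' deposited table, from 590 to 556 normalised counts, with an interval from -0.21 to 0.05. Rarb, the gene with the DR5 printed above, thus had a value on the other side of 0 from the rise of Aldh1a2. The 2 minor isozymes were the least precise: Aldh1a1 had -0.00 ± 0.37 (541 normalised counts in both) and Aldh1a3 -0.42 ± 0.33 (16.5 and 12.3) in the authors' deposited table.

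**Figure D2:**
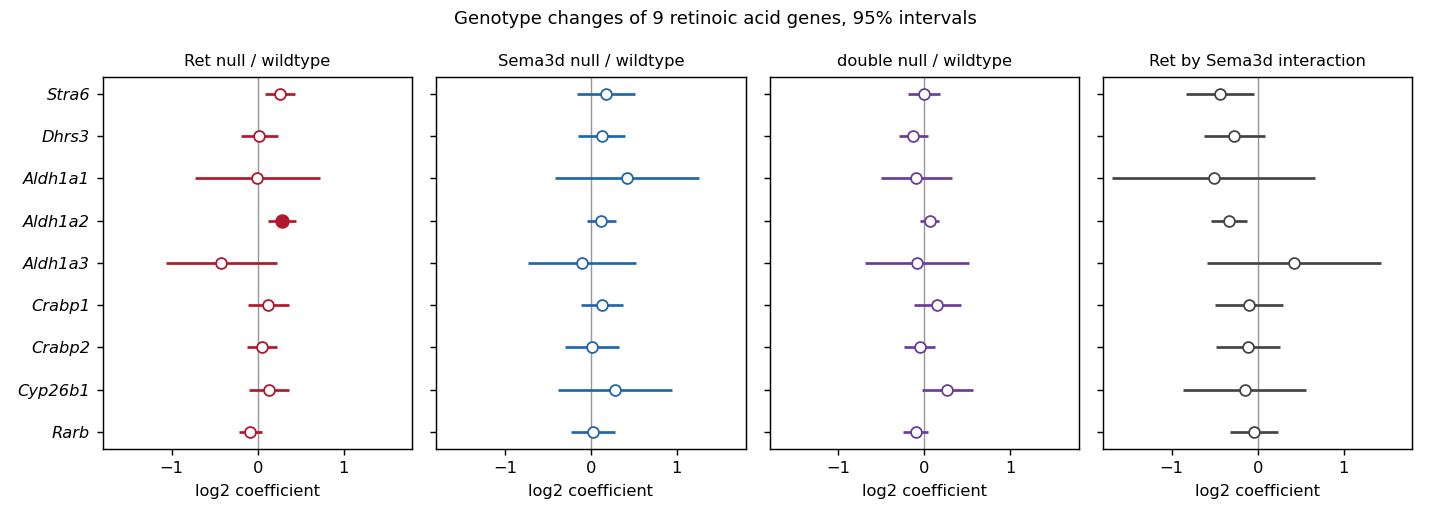
Log2 coefficients of the 9 genes (points) with 95% intervals from the derived error (lines) for Ret null, for Sema3d null and for double null against wildtype, 6 guts per genotype, and for the interaction over 24 guts; a filled point marks adjusted p below 0.05. Aldh1a2 in Ret null guts, at 0.28, is the only filled point, and Aldh1a1 and Aldh1a3 have the widest intervals in the Ret null panel.

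Loss of Sema3d alone was tested in the same way. None of the 9 genes was called (0 of 9 at an adjusted p below 0.05 from DESeq, against 0.0404% of all genes), and 0 of 9 had an unadjusted p below 0.05, against 4.53% of all genes. Aldh1a2 had 2663 normalised counts in wildtype and 2895 in Sema3d null guts, a log2 change of 0.12 ± 0.09 in the authors' deposited table, with an interval from -0.05 to 0.29. Stra6 had 0.17 ± 0.17 and Crabp1 0.13 ± 0.12 there. The values of 8 genes were positive and that of Aldh1a3 was negative (-0.10 ± 0.32), and each interval included 0.

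Errors in this comparison were larger over all genes, so that it had less power. The median error over genes at a level of at least 50 was 0.111, against 0.0776 for Ret null and 0.0787 for double null. Some members had still wider errors. By the authors' deposited table Aldh1a1 had a log2 change of 0.42 ± 0.43, from 561 to 751 normalised counts, with an interval from -0.41 to 1.25. Cyp26b1 had 0.28 ± 0.34 there. Smooth muscle markers summed to 115.6% of wildtype in these guts, with 0 of 7 called. Markers of the neighbouring pancreas and liver summed to 118.9% (4 of the 6 genes; Alb and Afp are left out of the sum, as their 24-gut fit did not converge), with 0 of 6 called and 3 of 6 higher at an unadjusted p below 0.05, against 2.19% of all genes. These 3, named after their values were seen, were Alb (2.19 ± 1.04 on the log2 scale), Ttr (0.40 ± 0.13) and Cpa1 (0.33 ± 0.16). The part of these cells in the members' values was not tested. Aldh1a1, Aldh1a3, Cyp26b1 and Stra6 had intervals that reached beyond 0.5 log2 units, while those of the other 5 stayed within it. Rarb had 0.03 ± 0.13, Dhrs3 0.12 ± 0.14 and Crabp2 0.01 ± 0.16 in the authors' deposited table.

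Double null guts were compared with wildtype to see the joint loss. Here too 0 of the 9 genes were called in the authors' deposited table, against 2.1% of all genes, and 0 had an unadjusted p below 0.05, against 6.71%. Aldh1a2 had a log2 change of 0.06 ± 0.06, from 2585 normalised counts in wildtype to 2700.5 with both genes lost (the authors' deposited table), with an upper bound of 0.17. Stra6 had -0.00 ± 0.09 (420 and 419 normalised counts), with an upper bound of 0.18. These upper bounds were below the values of both genes in Ret null guts, 0.28 and 0.26. The intervals overlapped, however, since those in Ret null guts began at 0.12 and 0.09. The 3 comparisons share the 6 wildtype guts, and the difference between double null and Ret null guts was not tested. The interaction, given next, asks a different question.

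None of the other members passed in the joint loss. Cyp26b1 had a log2 change of 0.27 ± 0.15, from 410 to 494 normalised counts (unadjusted p = 0.0744 and adjusted p = 0.879, the authors' deposited table). By the same deposited table Dhrs3 had -0.13 ± 0.09 and Rarb -0.10 ± 0.07, Crabp1 0.15 ± 0.14 and Crabp2 -0.05 ± 0.09. Aldh1a1 had -0.09 ± 0.21 and Aldh1a3 -0.09 ± 0.31. Each interval lay within 1 log2 unit of 0, so neither a doubling nor a fall to 50% was inside any of the 9.

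The interaction asks whether the double null level differs from the product of the single null ratios. No member passed in the authors' deposited table (0 of 9, against 0.164% of all genes). Aldh1a2 and Stra6 had the smallest p-values among the 9, both with a negative interaction. Aldh1a2 had a log2 interaction of -0.34 ± 0.11 in the authors' deposited table (unadjusted p = 0.00151, adjusted p = 0.218) and Stra6 one of -0.44 ± 0.20 (unadjusted p = 0.0304, adjusted p = 0.656). An unadjusted p below 0.05 was thus found for 2 of 9 members and for 6.79% of all genes (2.72% with a negative interaction).

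The fitted levels of the 24-gut fit show what these coefficients describe. Aldh1a2 stood at 121.7% of wildtype in Ret null guts, 108.5% in Sema3d null guts and 104.5% in double null guts, where the product of the single null ratios would be 132.0%. Stra6 was at 119.7%, 113.2% and 99.9%, with a product of 135.5%. The double null level was below that of Ret null guts by a log2 difference of -0.22 for Aldh1a2 and -0.26 for Stra6, values for which the tables give no error.

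The intervals of the remaining members' interactions included 0. In the authors' deposited table the log2 interaction was -0.27 ± 0.18 for Dhrs3, -0.51 ± 0.60 for Aldh1a1, -0.15 ± 0.36 for Cyp26b1, -0.11 ± 0.19 for Crabp2, -0.10 ± 0.20 for Crabp1, -0.04 ± 0.14 for Rarb and 0.43 ± 0.52 for Aldh1a3. Over the 8 members with a level of at least 50 the median was -0.21 and 0 of 8 were positive, beside a median of -0.00 and 49.8% positive over the 12411 genes at that level. These 8 values come from the same 24 guts and are not independent of each other.

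**Figure D3:**
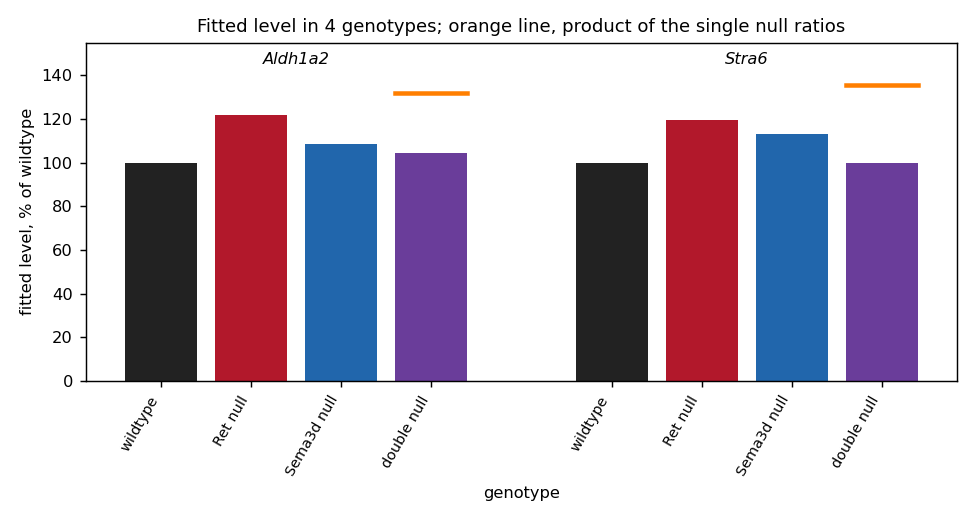
Fitted level as a percentage of wildtype (bars, from 0) of Aldh1a2 and Stra6 in the 4 genotypes of the 24-gut fit; the orange line over double null is the product of the single null ratios, and no error is drawn because the tables give none for a level. The double null bar lies below the line in both genes, for Aldh1a2 at 104.5% against 132.0%.

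Over the 8 members at a level of 50 or more, the median log2 change was 0.09 with Ret lost, 0.13 with Sema3d lost and -0.03 with both lost, beside 0.01, 0.00 and 0.01 over all genes at that level. These medians have no error of their own here, since the members were measured in the same guts. The balance within families moved little: Aldh1a2 made up between 89.0% and 92.5% of the Aldh1a level per kb over the 4 genotypes, and Crabp1 between 65.8% and 68.9% of the 2 Crabp genes.

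Members differed in the variation between guts that the authors' fit used for them. From each error and level the coefficient of variation between guts that the authors' fit used was computed; it can be a value the fit shared over genes of like level. It was 6.45 to 10.2% for Aldh1a2 over the 3 comparisons, 6.83 to 15.1% for Rarb, 8.58 to 18.1% for Crabp2 and 13.3 to 15.8% for Crabp1. Cyp26b1 had 13.6% in the Ret null fit and 40.5% in the Sema3d null fit. Aldh1a1 had 25.1 to 50.9%, and its error in the Ret null comparison was larger than that of 98.9% of the 12234 genes with a level of at least 50. The changes of Aldh1a1 are accordingly known to no better than ± 0.21 log2 units in any of the 3 comparisons.

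Sex was a covariate of each fit, and the authors deposited no p-value for it, so its coefficients are described only. Aldh1a1 was higher in male guts in each of the 4 fits, with male minus female log2 values of 0.62, 0.52 and 1.19 in the fits of Ret null, Sema3d null and double null with wildtype and 0.61 over all 24 guts in the authors' deposited tables. The value of 1.19 is a 2.28-fold male to female ratio. Crabp2 was lower in male guts in each fit, between -0.43 and -0.23. The size of the Aldh1a1 value over 24 guts was above that of 99.6% of genes with a level of at least 50, and that of Crabp2 above 96.8%.

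Smaller sex coefficients of 1 sign in the 4 fits were found for Aldh1a2 (0.16 to 0.22), Rarb (0.10 to 0.17), Dhrs3 (0.04 to 0.23) and Cyp26b1 (0.02 to 0.41), all higher in male guts, and for Crabp1 (-0.16 to -0.03). Those of Stra6 and Aldh1a3 changed sign between fits. The fits share the wildtype guts, so they are not separate observations. Smooth muscle markers had values of the same sign as Aldh1a1: the median male minus female log2 value of 7 markers was 0.26, 0.31, 0.70 and 0.30 in the same order of fits, with Acta2 at 0.70 and Myh11 at 0.98 in the authors' deposited double null table. That sign was not particular to smooth muscle. Epithelial markers had medians of 0.12, 0.18, 0.19 and 0.13, and those of neuron, crest and glia, and mesothelial markers were smaller or alike and also positive in each fit. Endothelial and macrophage markers had negative medians in each fit. Markers of the neighbouring kidney, gonad and mesonephros (6 genes) were near the floor for 4 of the 6, with wildtype levels of 2.06 for Nr5a1 and 0.847 for Pax8. The part of these cells in the sex values was not tested.

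**Figure D4:**
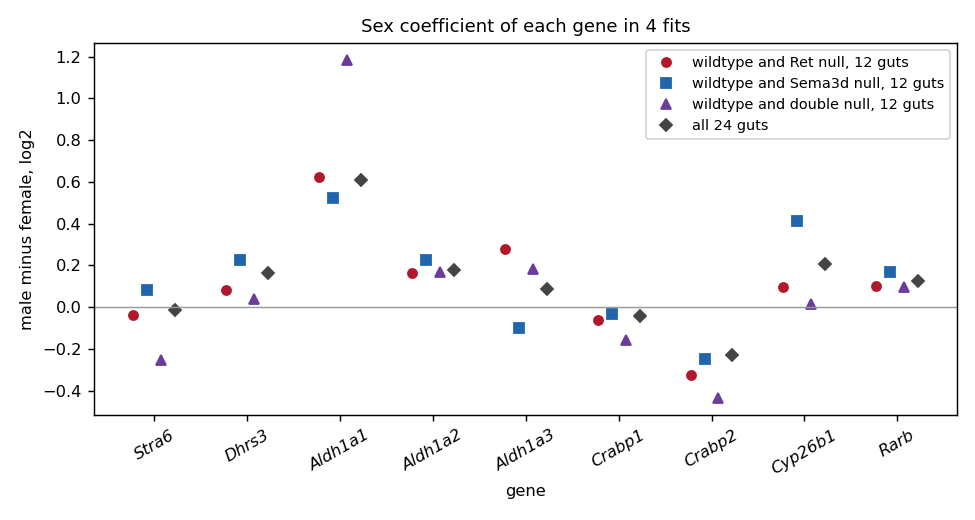
Male minus female log2 coefficient of the 9 genes in the 4 fits (1 symbol per fit), without error bars since the tables give none for sex. Aldh1a1 lies highest in each fit, up to 1.19, and Crabp2 lies below 0 in each.

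Other genes of the pathway were read beside the 9 members by their role. Few passed: among 22 genes known to respond to retinoic acid, of which 21 were tested, 1 was lower and 0 higher in Ret null guts, 0 passed in Sema3d null guts, 2 were lower and 0 higher in double null guts, and 0 passed for the interaction (adjusted p below 0.05 in the authors' deposited tables). An unadjusted p below 0.05 was found for 4 of the 21 in Ret null guts (1 higher and 3 lower, against 8.43% of all genes), for 1 in Sema3d null guts (4.53%), for 6 in double null guts (1 higher and 5 lower, against 6.71%) and for 1 in the interaction (6.79%). The shares of all genes called as lower were 2.27% for Ret null and 1.87% for double null. The median log2 change over the 17 responsive genes at a level of 50 or more was 0.05 with Ret lost, 0.02 with Sema3d lost and 0.05 with both lost. Of 14 further enzymes of retinol and retinal oxidation and reduction (13 tested in the Sema3d null comparison) and of 6 co-regulators of the receptors, 0 were called in each of the 4 tables.

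The responsive genes that passed were Hoxb5 and Tshz1. Hoxb5, a homeobox gene active in enteric neural crest as well as gut mesenchyme, fell when Ret was lost (-0.41 ± 0.08, adjusted p = 4.56e-05) and when both were lost (-0.58 ± 0.09, adjusted p = 1.85e-09), by the authors' deposited tables. The neuron markers were at 15.5% and 15.2% in those guts, and their part in the fall was not tested. Tshz1, a zinc finger gene, fell in double null guts by -0.17 ± 0.05 (adjusted p = 0.0384, the authors' deposited table), with -0.08 ± 0.05 in Ret null guts.

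The receptors were read for their role, after their values had been seen. With Ret lost, Rara had a log2 change of -0.03 ± 0.06, Rarg 0.02 ± 0.09, Rxra -0.01 ± 0.05 and Rxrb 0.10 ± 0.06, and 0 of 6 receptor genes were called in any of the 4 tables. In Sema3d null guts Rara had 0.22 ± 0.09 (unadjusted p = 0.0196, adjusted p = 0.967, the authors' deposited table). The 5 receptor genes at a level of 50 or more had a median of 0.13 there, with 4 of 5 positive. Rdh10, which makes the retinal that Aldh1a2 uses, had 0.01 ± 0.09 in Ret null guts. Of the 3 further genes of binding and breakdown, Cyp26a1 was measured at a wildtype level of 9.16 normalised counts, and Cyp26c1 was fitted at about 0 in wildtype guts and gave no usable value. The third, Fabp5, a fatty acid binding protein that can also carry retinoic acid, had -0.14 ± 0.06 in Ret null guts and -0.23 ± 0.10 in double null guts (adjusted p = 0.490 and adjusted p = 0.422, the authors' deposited tables).

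**Figure D5:**
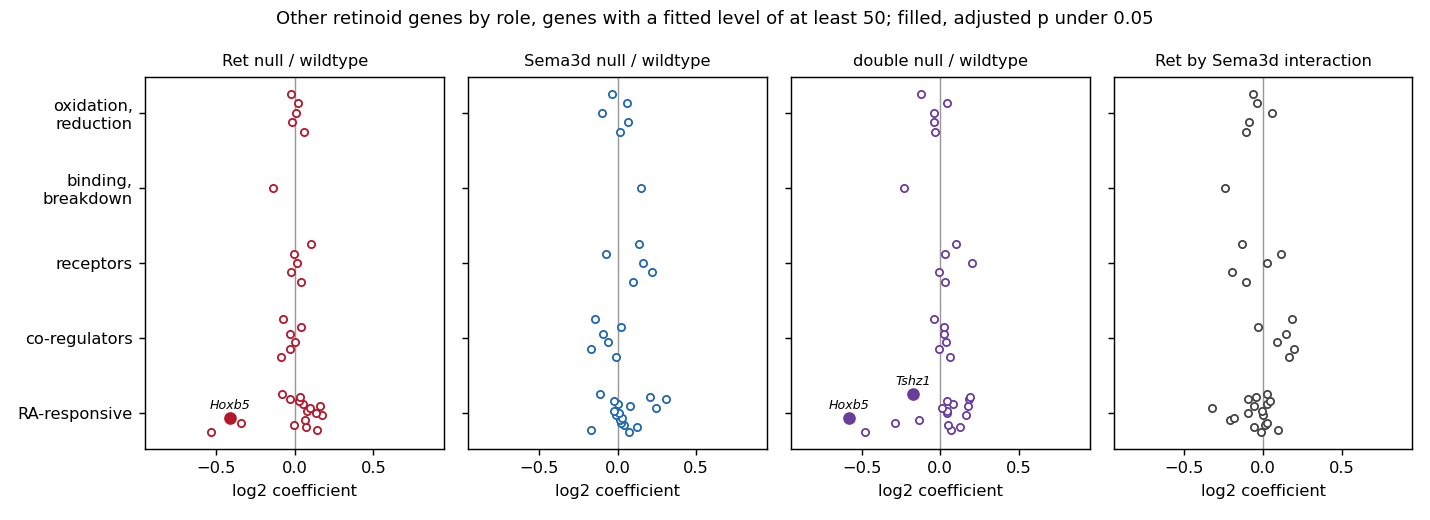
Log2 coefficients of other retinoid genes fitted at a level of 50 or more, by role (rows; small vertical offsets separate the genes), for Ret null, for Sema3d null and for double null against wildtype and for the interaction; filled points have adjusted p below 0.05. Hoxb5 and Tshz1 are the filled points, each below 0, and the median of the 17 responsive genes is 0.05 in Ret null guts.

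Markers of the cell types that express the members were read beside the rise of Aldh1a2. Aldh1a2 is made by mesothelium as well as mesenchyme. Of 10 mesothelial markers 0 were called in Ret null guts and 3 had an unadjusted p below 0.05, all higher (2.96% of all genes); in double null guts 0 were called and again 3 of 10 were higher at that level (2.72% of all genes). Over the 8 with a level of at least 50 the median log2 change was 0.09 in Ret null guts and 0.16 in double null guts. The summed level of the list was 108.2% of wildtype in Ret null guts, 107.5% in Sema3d null guts and 112.6% in double null guts. Aldh1a2 stood at 121.7%, 108.5% and 104.5% in the same order; neither series of sums and levels has an error, and their differences were not tested. Bnc1, a mesothelial zinc finger gene, had 0.16 ± 0.06 (adjusted p = 0.197) in Ret null guts, by the authors' deposited table. Not all mesothelial markers were higher there. Of the 8 at a level of at least 50, 6 had positive values, while Gpm6a had -0.31 and Lrrn4 -0.14. Tbx18 had -0.14. Mesothelial markers below a level of 50 in wildtype were Tbx18 and Msln.

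Mesenchymal and interstitial markers summed to 99.0% of wildtype in Ret null guts, and 1 of the 9 measured was called. Hand2, a transcription factor of gut mesenchyme and crest, fell, with a log2 change of -0.28 ± 0.06 (adjusted p = 7.98e-05, the authors' deposited table). Of the other 8, 3 had an unadjusted p below 0.05, all higher (2.96% of all genes): chosen after their values were seen, these were Barx1 (0.31), Foxf1 (0.17) and Pdgfra (0.12), genes of gut mesenchyme. The list as a whole did not rise: over the 9 markers the median log2 change was -0.01, and 4 of 9 values were positive. Smooth muscle markers summed to 95.7%, epithelial to 103.4% and endothelial to 100.1% of wildtype in Ret null guts, with 0 called in each list; with both genes lost, endothelial markers summed to 119.2% and 4 of 6 were called higher, against 0.231% of all genes. Macrophage markers summed to 81.3%, with 0 of 5 called and Cx3cr1 at -0.34 ± 0.12 (adjusted p = 0.117, the authors' deposited table). The part that a share of neural cells or of any other cell type has in the Aldh1a2 value was not tested.

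The genes nearest to Aldh1a2 in their log2 changes over the 3 comparisons with wildtype were sought among 12130 genes with a wildtype level of at least 50. They were Dkk2 (Euclidean distance 0.0153), which encodes a secreted Wnt antagonist, Xylb (0.0176) and 4930452B06Rik (0.0184). By the authors' deposited tables Dkk2 had a log2 change of 0.27 with Ret lost (adjusted p = 0.0316), 0.12 with Sema3d lost and 0.06 with both lost. Xylb and 4930452B06Rik did not pass in any comparison. The likeness is a description over 3 values that share the wildtype guts.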

How the data were processed

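Poly-A RNA of 24 guts was sequenced as read pairs from a stranded kit, per the labels' protocols. Per the submitters' processing notes, GRCm38 (mm10) and the tools STAR, DESeq 1.24.0, RSEM 1.2.31, Trimmomatic 0.36 and FastQC 0.11.5 were used; roles and order are not stated. The authors deposited log2 coefficients (intercept, sex, genotype), model deviances, used here as a score of fit, and p-values with Benjamini-Hochberg adjusted p-values over each table, per the file headers. In the interaction table the deposited coefficients are log2 values too. Headers do not name the base of the logarithm; base 2 was taken, since the natural base would make the fitted levels sum to far more than the depth aimed at. The Ret null table has the symbol and gene type headers exchanged, and both columns were read by content. The depth of each library is unknown.

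Each error was derived as the size of the coefficient over the square root of the deviance difference, and checked on simulated data. Fitted level is 2 to the intercept, averaged over the sexes, times the genotype ratios. Calls use the deposited adjusted p below 0.05, from tests of each gene in 12 or 24 guts. Without counts, no count model could be fitted. The p-values rest on the spread between guts that the authors' fit used, which can be a value shared over genes of like level. Named genes were the 9 members, Ret, Sema3d, up to 6 called genes per list or, without calls, 2 by p, and the 3 genes nearest to a called member; for lists without a call here only some are printed. Genes of retinol uptake and storage other than Stra6 are not reported here. Members and lists were chosen with earlier results of these data known. Exon lengths and positions come from GENCODE M21, promoters from RefSeq. Python 3.11.15, numpy 2.4.6, pandas 2.3.3 and scipy 1.17.1 were used.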

Additional observations from a re-analysis of the deposited data

How the results depend on the processing

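The call of Aldh1a2 in Ret null guts rests on the threshold. With adjusted p below 0.01, or with the Benjamini-Yekutieli adjustment of the authors' deposited p-values (adjusted p = 0.302), 0 of 9 members were called in Ret null guts; adjusted over genes with a level of at least 50 it had adjusted p = 0.0190 and 1 of 9 was called, as with adjusted p below 0.1. In Sema3d null and double null guts and for the interaction 0 of 9 members were called under each of these 4 settings. Taken from the 24-gut fit, the 27 log2 changes moved by at most 0.0185, and after subtraction of the table median the 36 coefficients moved by at most 0.00793. Under either, 0 changed sign, and 0 of the 9 interactions did when computed from the 3 12-gut fits. These fits estimate the same contrasts from the same guts, and the medians are close to 0. The values could thus hardly move, and their stability is no independent check. No paired analysis was possible because the tables hold no value per gut, and leaving out each replicate could not be run for the same reason. Precision is limited for Aldh1a3, with 16.9 normalised counts, and for Aldh1a1, with its spread between guts.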
